A study of Mus musculus with 11 samples.

Results

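RNA interference against the DRR RNA (DRRi) was compared with RNA interference against GFP (GFPi) in C2C12 cells, a mouse myoblast line that stops dividing and fuses into myotubes when serum is lowered. The DRR, or distal regulatory region, is an enhancer of the MyoD gene Myod1. Genes were described where the mean of both libraries reached 1 FPKM (sequenced fragments scaled by transcript length and library size), which left 10577 of the 20368 gene symbols listed, and 2 of the 11 samples of the series. The means next to this limit were 1.00 FPKM on either side to 3 digits. Rpl35, whose value in GFPi stood apart, is given on its own at the end, so the counts below are over 10576 genes.

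Both libraries were polyA RNA of C2C12 cells of the C3H strain, grown in 10% fetal bovine serum and taken 4 h after the change to medium with 2% horse serum and an insulin supplement. The DRRi cells carried RNAi against the enhancer RNA, and the GFPi cells carried RNAi against GFP, which these cells do not normally make. The labels name neither the RNAi sequence nor the number of clones. A second pair of libraries, labelled pHAN_DRR1.2 and pHAN_GFP, came from cells that overexpressed the enhancer RNA or GFP, at the same hour, and is set beside the first. MyoD and H3K4me1 ChIP-seq came from proliferating myoblasts and from myotubes at 48 h, and MyoG ChIP-seq from myotubes, none of them with RNAi. Every group held 1 library, so there was no replicate check on any difference, and sizes of change are given without a test. RNA depth is unknown, since the FPKM values are not whole multiples of a read. The table lists coding sequences, and the level of the enhancer RNA itself was not analysed here.

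Enhancers that are active are often transcribed, and such enhancer RNA has been studied for its part in opening chromatin and recruiting RNA polymerase at target genes. MyoD, a basic helix-loop-helix factor, binds E-boxes and commits cells to the muscle lineage, and it switches on MyoG, which drives terminal differentiation. In the first hours in low serum, C2C12 cells still resemble myoblasts. Beside muscle genes they then alter the growth factors they secrete, the matrix they lay down and their protein and lipid metabolism.

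Markers of myoblasts were present in both libraries. Des, the muscle intermediate filament protein, stood at 231 FPKM in DRRi and 267 FPKM in GFPi. Cdh15, muscle cadherin, stood at 75 and 76.7 FPKM in DRRi and GFPi, and Myf5, a myogenic factor of undifferentiated cells, at 18.4 and 15.1 FPKM. Myod1 was at 33.1 FPKM in DRRi and 37.7 FPKM in GFPi. Of the myoblast markers 8 of 9 passed the filter, with summed FPKM of 507 in DRRi and 582 in GFPi, and 6 of the 8 lay below 0. The member past 1.5-fold was Itga7, the integrin subunit of myoblasts that binds laminin, at 46.8 FPKM in DRRi and 74.3 FPKM in GFPi (-0.66). Markers of other cell types were few: 0 of 8 endothelial, 1 of 7 blood, 2 of 9 adipocyte, 2 of 9 osteoblast and cartilage, 2 of 8 neural and 2 of 9 fibroblast genes passed. The summed endothelial markers were at 0.194 FPKM in DRRi and 0.127 FPKM in GFPi, and the blood markers at 1.78 and 2.52 FPKM, with Ptprc, the common leukocyte antigen, listed at 0 in both. The adipocyte sum was 11.6 FPKM in DRRi and 11.7 FPKM in GFPi, the osteoblast and cartilage sum 21.1 and 19.1 FPKM, the neural sum 39.3 and 28.9 FPKM and the fibroblast sum 175 and 241 FPKM. The fibroblast markers that passed lay on opposite sides, Col3a1 at 160 FPKM in DRRi and 235 FPKM in GFPi (-0.56) and Col1a1 at 14.2 and 4.32 FPKM (1.51), both genes of fibrillar collagens. These are bulk samples, in which fewer cells of a type and less RNA per cell cannot be told apart.

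Changes were given as log2 of DRRi over GFPi after adding 1 FPKM to each, a scale that understates the change of weakly expressed genes, and all log2 values and fold thresholds below are on it. The median over all genes was 0.02, 53.5% of genes lay above 0, and 80% lay between -0.36 and 0.41. At 2-fold or more, 94 genes were higher in DRRi (0.889% of 10576) and 85 were lower (0.804%). At 1.5-fold or more, 492 genes were higher (4.65%) and 370 were lower (3.50%). The authors' deposited table called 67 of these genes higher (0.634%) and 61 lower (0.577%) at its q-value threshold of 0.05, and 55 and 54 of the calls were also past 2-fold. Of the genes 2-fold or more away, 50 higher and 52 lower ones belonged to none of the gene lists used here.

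**Figure D1:**
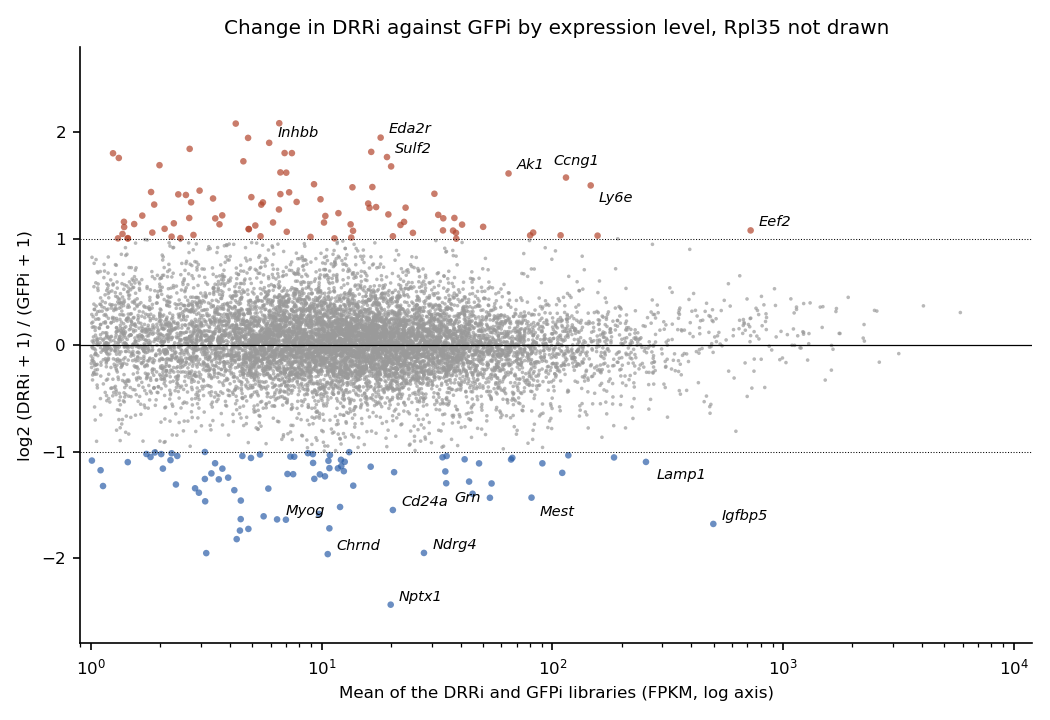
Each point is a gene, with its mean FPKM over DRRi and GFPi on a log axis and its log2 change on the vertical axis. Red points are the 94 genes 2-fold or more higher in DRRi and blue points the 85 genes 2-fold or more lower, and the dotted lines mark 2-fold.

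The genes furthest from GFPi were taken at 5 FPKM or more on average, 15 on each side. Igfbp5, a secreted binding protein of the insulin-like growth factors, was the most abundant of the 15 furthest below, at 237 FPKM in DRRi and 760 FPKM in GFPi (-1.68). Mest, an imprinted gene of mesoderm, was at 43.4 FPKM in DRRi and 119 FPKM in GFPi (-1.43). Dpy30, a core subunit of the complexes that methylate histone H3 at lysine 4, was at 28.5 FPKM in DRRi and 78.7 FPKM in GFPi (-1.43). Without the added 1 FPKM the folds were 3.21 for Igfbp5, 2.74 for Mest and 2.76 for Dpy30, at levels where it hardly counts. In the authors' deposited table their q-values were 0.00848 for Igfbp5, 0.00261 for Mest and 0.0130 for Dpy30.

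The same end held genes best known from neurons. Nptx1, a secreted pentraxin that clusters glutamate receptors at synapses, was at 5.52 FPKM in DRRi and 34.3 FPKM in GFPi (-2.44). Olfm1, a secreted olfactomedin, was at 24.4 and 65.8 FPKM in DRRi and GFPi (-1.39). Cbln1, a synaptic organizer that averaged less than 5 FPKM, was at 1.70 FPKM in DRRi and 7.92 FPKM in GFPi (-1.73). Of the 18 pentraxin and synaptic vesicle genes that passed the filter, however, 4 were 1.5-fold or more higher (22.2%, against 4.65% of all genes). Lower were 2 (11.1%, against 3.50%), and the median was 0.01. Genes of this kind thus shared no direction. Gas2, a protein of the actin and microtubule skeleton, was at 5.72 FPKM in DRRi and 18.3 FPKM in GFPi (-1.52), and Nme4, a mitochondrial nucleoside diphosphate kinase, at 2.89 and 11.1 FPKM (-1.64). Cd24a, a small sialoprotein of the cell surface, was at 9.89 FPKM in DRRi and 30.8 FPKM in GFPi (-1.55).

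At the opposite end stood Ly6e, a surface protein of the Ly6 family, at 217 FPKM in DRRi and 76.2 FPKM in GFPi (1.5). Ak1, an adenylate kinase, was at 97.8 and 31.3 FPKM in DRRi and GFPi (1.61), and Gpr124, an adhesion receptor that takes part in Wnt signalling, at 11.1 and 2.94 FPKM (1.62). The gene listed as 9030617O03Rik was at 31.0 FPKM in DRRi and 8.99 FPKM in GFPi (1.68). The authors' deposited table called each of these 4 higher. Dcxr, which reduces L-xylulose, was at 12.1 FPKM in DRRi and 2.75 FPKM in GFPi (1.80). Akr1b3, aldose reductase of the polyol pathway, was furthest of all at 11.2 and 1.89 FPKM in DRRi and GFPi (2.08), yet its q-value in the authors' deposited table was 1.000. Hmga1, an architectural chromatin protein, was at 24.9 and 8.26 FPKM (1.49) summed over its coding sequences, but its locus overlaps another entry, so its level is uncertain. Of 18 aldo-keto reductases and polyol enzymes 5 were higher (27.8%, against 4.65% of all genes) and 2 lower (11.1%, against 3.50%).

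**Figure D2:**
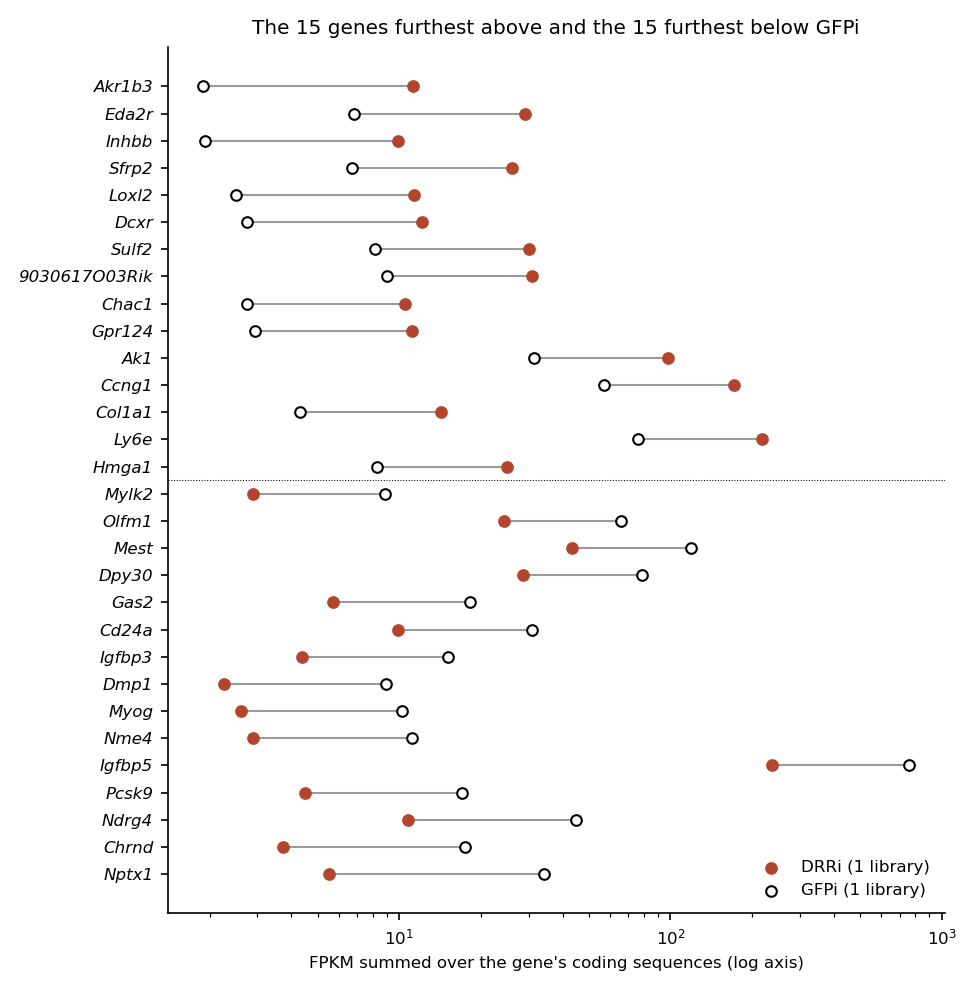
FPKM of the 15 genes furthest above and the 15 furthest below in DRRi, on a log axis, with a filled point for DRRi and an open point for GFPi joined by a line. Igfbp5, at 237 FPKM in DRRi and 760 FPKM in GFPi, is the most abundant of the 30.

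Genes of secreted signals differed in both directions, family by family. In the activin and transforming growth factor family, Inhbb, the subunit of activin B, was at 9.92 FPKM in DRRi and 1.92 FPKM in GFPi (1.90). Fst, follistatin, which binds and blocks activins and myostatin, was at 7.48 FPKM in DRRi and 1.00 FPKM in GFPi (2.08). Fstl3, a related antagonist, was at 8.48 and 5.06 FPKM (0.65), and Tgfb2, a ligand, at 10.2 and 6.40 FPKM (0.60). Thus a ligand subunit and its antagonist were both high in DRRi. Of 37 members of the list 4 were 1.5-fold or more higher (10.8%, against 4.65% of all genes) and 0 lower (against 3.50%). The authors' deposited table called Inhbb and Fst higher, and gave q-values of 0.771 for Fstl3 and 0.605 for Tgfb2.

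In the insulin-like growth factor axis a pair of binding proteins was lower. Igfbp3 was at 4.38 FPKM in DRRi and 15.1 FPKM in GFPi (-1.58), so with Igfbp5 2 of 13 members were lower (15.4%, against 3.50% of all genes), and both were called lower in the authors' deposited table. Igf2bp2, which binds the mRNA of Igf2 and others, was the 1 higher member (7.69%, against 4.65% of all genes), at 11.4 FPKM in DRRi and 5.50 FPKM in GFPi (0.93). The median of the 13 was -0.12, and their summed FPKM was 510 in DRRi and 1062 in GFPi, most of which was Igfbp5.

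In Wnt signalling the members furthest from GFPi were secreted modulators. Sfrp2 was at 26.1 FPKM in DRRi and 6.69 FPKM in GFPi (1.82), and Sfrp1 at 7.94 and 3.81 FPKM (0.89); both can bind Wnt proteins outside the cell. Wnt10b, a ligand, was at 4.43 FPKM in DRRi and 2.29 FPKM in GFPi (0.73), and Dact1, an intracellular modulator, at 1.65 and 0.638 FPKM (0.70). Wls, which carries Wnt proteins to the cell surface, was lower, at 109 FPKM in DRRi and 173 FPKM in GFPi (-0.65), as was the receptor Fzd3 at 2.99 and 5.26 FPKM (-0.65). The list had 4 of 35 members higher (11.4%, against 4.65% of all genes) and 2 lower (5.71%, against 3.50%), and Sfrp2 was the member called in the authors' deposited table.

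In Notch signalling 2 of 21 members were higher (9.52%, against 4.65% of all genes) and 3 lower (14.3%, against 3.50%). The receptor gene Notch1 was at 15.7 FPKM in DRRi and 7.64 FPKM in GFPi (0.96), and Maml1, a coactivator, at 13.7 and 8.49 FPKM (0.63). Heyl, a repressor that Notch induces, was at 1.33 FPKM in DRRi and 7.23 FPKM in GFPi (-1.82). The ligand genes Jag2, at 9.93 and 19 FPKM (-0.87), and Dll1, at 1.33 and 3.17 FPKM (-0.84), were also lower in DRRi. The median of the 21 was 0.20, with 12 above 0, and the authors' deposited table called Heyl lower and Notch1 higher.

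Growth factor receptors and the feedback genes of the ERK kinase pathway had 10 of 42 members higher (23.8%, against 4.65% of all genes). Lower were 2 (4.76%, against 3.50%). The median was 0.25, and with no filter on low values it was 0.12. Fgf2, a mitogen for myoblasts, was at 3.12 FPKM in DRRi and 0.522 FPKM in GFPi (1.44). Etv4 and Etv5, transcription factors that ERK signalling induces, were at 27.6 and 7.62 FPKM in DRRi and at 13.1 and 3.24 FPKM in GFPi, a log2 change of 1.02 for each. Fgf7 was at 4.09 and 1.63 FPKM in DRRi and GFPi (0.95). Fgfr4, a receptor of differentiating myoblasts, was lower at 9.37 FPKM in DRRi and 16.2 FPKM in GFPi (-0.73), and Pdgfb was at 3.83 and 6.33 FPKM (-0.60). No member was called in the authors' deposited table. AP-1 and Egr early response factors had 6 of 23 higher (26.1%, against 4.65% of all genes) and 1 lower (4.35%, against 3.50%). Ier3 led at 14.7 FPKM in DRRi and 7.69 FPKM in GFPi (0.85), and the lower one was Egr3 at 1.60 and 3.06 FPKM (-0.64).

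Targets of YAP and TEAD, the effectors of the Hippo pathway, had the highest median of the signalling lists. Of 23 members 8 were 1.5-fold or more higher (34.8%, against 4.65% of all genes) and 0 were lower, and 19 lay above 0, with a median of 0.35. Thbs1, a matrix glycoprotein, was at 358 FPKM in DRRi and 185 FPKM in GFPi (0.95). Ctgf, a matricellular growth factor often used as a readout of YAP, was at 8.24 FPKM in DRRi and 2.70 FPKM in GFPi (1.32). Lats2, the kinase that restrains YAP and is itself induced by it, was at 18.7 and 7.99 FPKM (1.13), and Crim1, a membrane antagonist of BMP ligands, at 8.83 and 4.09 FPKM (0.95). The authors' deposited table called Ctgf and Lats2 higher. Within 10 kb, 18 of these 23 loci held a MyoD peak of myoblasts (78.3%), against 45.0% of all genes. This was not particular to the list. In the other signalling lists the share ran from 47.4% in the tumour necrosis factor receptor family to 85.7% in Notch signalling.

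Cytokine genes had 5 of 24 members higher (20.8%, against 4.65% of all genes) and 2 lower (8.33%, against 3.50%). Ccl2, a monocyte attractant, was at 11.0 FPKM in DRRi and 3.45 FPKM in GFPi (1.44), and Il33, an alarmin, at 4.10 and 1.23 FPKM (1.19). Cxcr4, the receptor for the stromal chemokine that guides myoblast migration, was lower, at 12.1 FPKM in DRRi and 29.1 FPKM in GFPi (-1.19). In the tumour necrosis factor receptor family 6 of 19 were higher (31.6%, against 4.65% of all genes) and 0 lower, 3 of the 6 (Eda2r, Fas and Tnfrsf10b) being p53 targets as well, but the median was 0.04 and changed sign without a filter on low values. Tnfrsf21, which can signal death, was at 6.94 FPKM in DRRi and 2.73 FPKM in GFPi (1.09), and Tnfrsf10b, a death receptor induced by p53, at 18.9 and 8.44 FPKM (1.07).

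Matrix genes lay on both sides of GFPi. Sparc, an abundant collagen-binding protein, was at 454 FPKM in DRRi and 795 FPKM in GFPi (-0.81), Gpc1, a cell surface heparan sulphate proteoglycan, at 171 and 276 FPKM (-0.69), and Mgp, which inhibits calcification, at 120 and 250 FPKM (-1.05). Postn, a fibroblast matricellular protein, was higher at 5.33 FPKM in DRRi and 1.43 FPKM in GFPi (1.38), and Sdc3, a syndecan of muscle progenitors, was at 29.5 and 18.0 FPKM (0.68). In all, 5 of 25 proteoglycans and matricellular proteins were higher and 5 were lower, where 4.65% of all genes were higher and 3.50% lower. Of the 25, 16 lay above 0, against 53.5% of all genes, with a median of 0.21. The authors' deposited table called 1 of them higher, Postn, and 1 lower, Mgp. Among the collagens, Col1a1 was at 14.2 FPKM in DRRi and 4.32 FPKM in GFPi (1.51), while Col8a2 was at 0.870 and 2.49 FPKM (-0.90), and the 17 kept had a median of -0.03. Loxl2, a lysyl oxidase that crosslinks collagen, was at 11.3 FPKM in DRRi and 2.51 FPKM in GFPi (1.80).

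Enzymes that edit heparan sulphate at the cell surface differed in opposite directions. Sulf2 was at 30.2 FPKM in DRRi and 8.17 FPKM in GFPi (1.77), and its paralogue Sulf1 at 10.0 and 17.8 FPKM (-0.77); both remove sulphate groups that growth factors bind. B4galt7, which builds the linker of these chains, was at 7.26 FPKM in DRRi and 12.3 FPKM in GFPi (-0.68). Matrix proteases and inhibitors had 7 of 35 higher and 2 lower, where 4.65% of all genes were higher and 3.50% lower. The 7 include Adamts10, whose values are uncertain as given below. The authors' deposited table called 1 of the 35 higher, Serpine2, and 0 lower. Serpine2, an inhibitor of thrombin and plasminogen activators, was at 4.20 FPKM in DRRi and 0.956 FPKM in GFPi (1.41), and Plat, tissue plasminogen activator, at 16.4 and 8.93 FPKM (0.81). Adamts10 was listed at 2.49 FPKM in DRRi and 0.000709 FPKM in GFPi, with the order turned round in the overexpression pair (0.000703 FPKM in pHAN_DRR1.2 and 2.27 FPKM in pHAN_GFP) and a q-value of 1.000 in the authors' deposited table, so no fold is given for it.

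**Figure D3:**
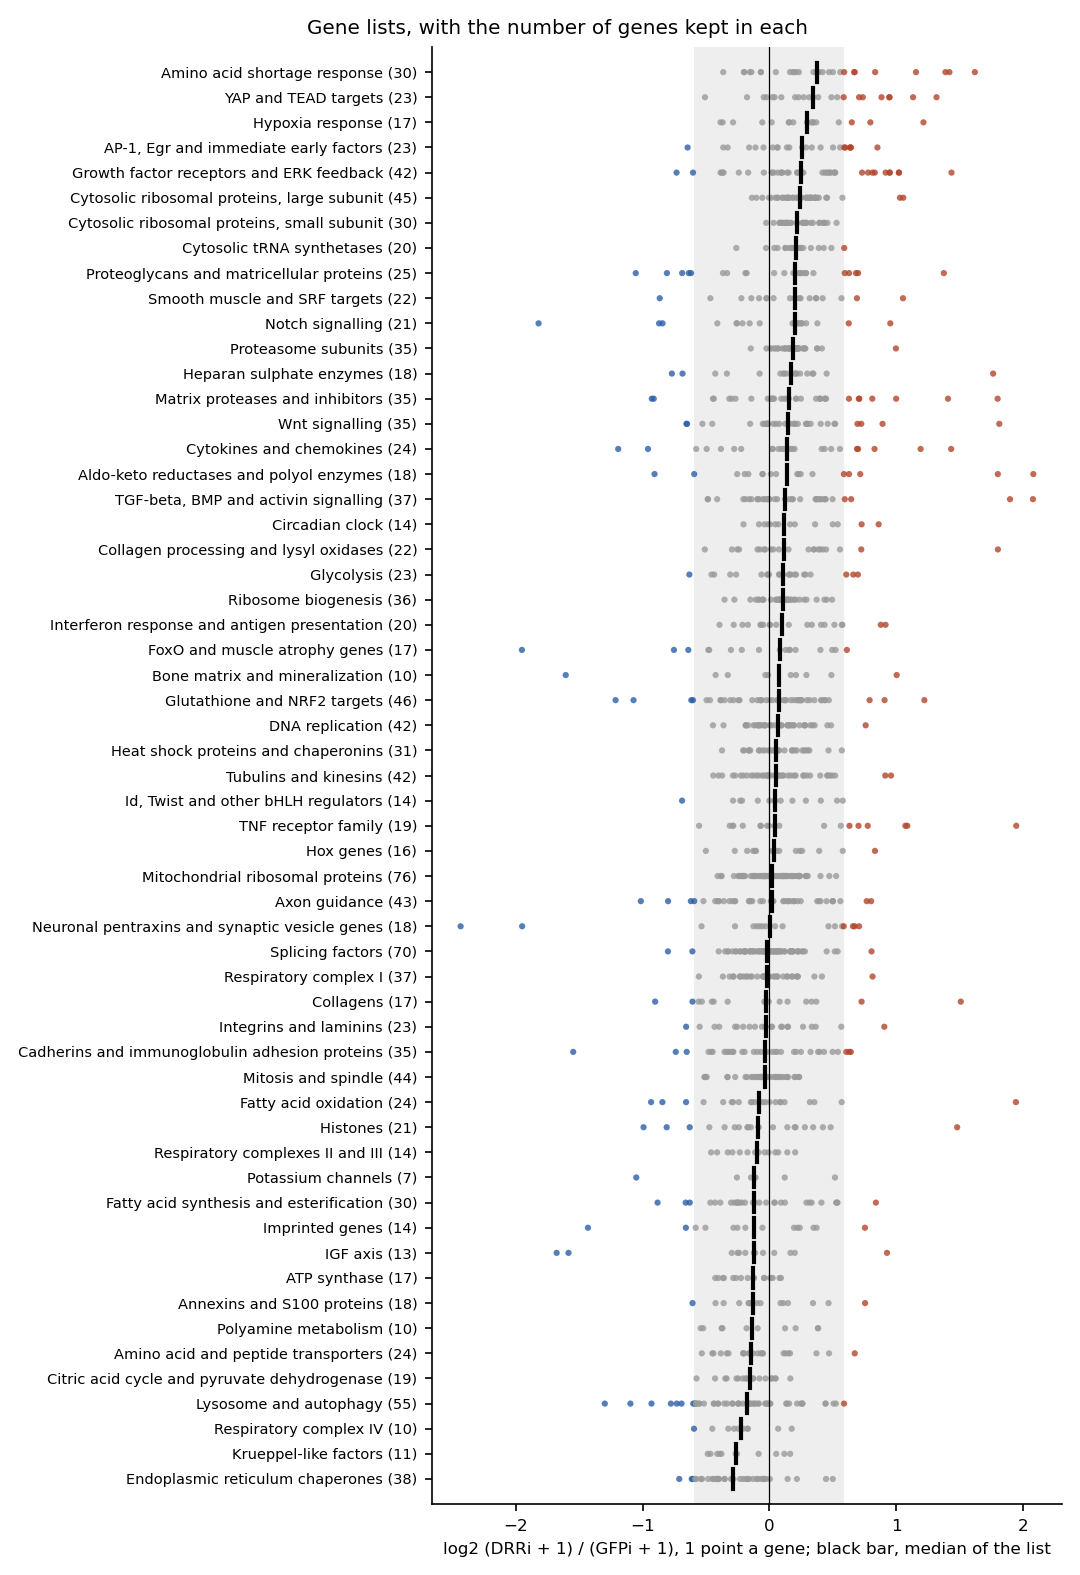
Each row is a gene list with the number of its genes kept, each point a gene at its log2 change in DRRi over GFPi, and the black bar the median of the list. Red and blue points lie outside the grey band, at 1.5-fold or more higher or lower. Medians run from 0.37 in the amino acid shortage response to -0.29 in the endoplasmic reticulum chaperones.

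The response to amino acid shortage had the highest median of the 57 lists that hold neither markers nor muscle, p53 or cholesterol genes. Cells short of amino acids phosphorylate the initiation factor eIF2, translate the factor ATF4 and switch on genes for amino acid synthesis and import. In DRRi 8 of 30 such genes were 1.5-fold or more higher (26.7%, against 4.65% of all genes), 0 were lower, 23 lay above 0, and the median was 0.37. Chac1, which degrades glutathione, was at 10.5 FPKM in DRRi and 2.74 FPKM in GFPi (1.62). Ddit4, an inhibitor of mTORC1, was at 45.3 FPKM in DRRi and 16.3 FPKM in GFPi (1.42). Trib3, a pseudokinase induced by ATF4, was at 7.62 and 2.29 FPKM (1.39), and Psph, the last enzyme of serine synthesis, at 31.8 and 13.7 FPKM (1.16). The authors' deposited table called all 4 higher, at q-values of 0.00786 for Chac1, 0.00179 for Ddit4, 0.0229 for Trib3 and 0.0354 for Psph. Atf4 mRNA itself was 0.23 above GFPi and Ddit3, encoding CHOP, was 0.39 above. Ddit4 and other members are also induced by p53 or by low oxygen. The hypoxia list had 3 of 17 higher (17.6%, against 4.65% of all genes) and 0 lower, with a median of 0.30.

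The promoters of genes in this list were searched for TGATGNAA on both strands, the core of the composite element that ATF4 and its C/EBP partners bind. RefSeq promoters of GRCm38.p6, from 250 bases before to 50 after the start of transcription, were matched for 27 of the 30 genes, and 8 of the 27 held the letters (29.6%), against 3.97% of all 32851 promoters of the table. Among the 7 matched members 1.5-fold or more higher, 4 held them, and among the other 20, 4 did. The match is a description of these letters and shows no binding. The members were picked as genes of this response, so their share with the letters cannot be compared with that of all promoters. Of the 4 promoters of higher members with the letters, 3 are printed with the matches in capitals, and that of Slc1a4 (0.67) is not. The 4 members with the letters under 1.5-fold ran from 0.56 in Nupr1 to -0.14 in Atf3. Asns, asparagine synthetase, was at 92.6 FPKM in DRRi and 57.8 FPKM in GFPi (0.67).
Chac1, chr2:119350992-119351291, plus strand: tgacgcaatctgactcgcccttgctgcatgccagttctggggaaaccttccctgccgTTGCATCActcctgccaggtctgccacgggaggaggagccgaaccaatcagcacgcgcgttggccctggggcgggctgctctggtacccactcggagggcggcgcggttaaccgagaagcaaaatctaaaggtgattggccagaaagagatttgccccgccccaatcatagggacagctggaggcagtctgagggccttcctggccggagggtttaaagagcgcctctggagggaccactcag
Trib3, chr2:152344011-152344310, minus strand: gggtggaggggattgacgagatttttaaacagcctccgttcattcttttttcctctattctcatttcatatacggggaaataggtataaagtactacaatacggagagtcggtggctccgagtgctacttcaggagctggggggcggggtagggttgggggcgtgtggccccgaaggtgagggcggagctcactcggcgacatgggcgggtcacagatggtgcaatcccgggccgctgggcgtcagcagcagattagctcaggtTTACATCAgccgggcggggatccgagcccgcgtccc
Asns, chr6:7693160-7693459, minus strand: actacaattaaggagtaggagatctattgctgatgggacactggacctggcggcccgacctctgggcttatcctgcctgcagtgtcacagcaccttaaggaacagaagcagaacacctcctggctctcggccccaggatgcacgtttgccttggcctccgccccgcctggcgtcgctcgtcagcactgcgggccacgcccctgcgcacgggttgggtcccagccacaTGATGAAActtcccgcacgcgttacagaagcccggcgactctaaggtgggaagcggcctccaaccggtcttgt

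The enzymes that charge tRNA, many of them ATF4 targets as well, were mostly a little higher, with 18 of 20 cytosolic synthetase genes above 0, against 53.5% of all genes, and a median of 0.21. Mars, the methionine enzyme, was at 49.7 FPKM in DRRi and 32.7 FPKM in GFPi (0.59) and was the member past 1.5-fold. Ass1, which makes argininosuccinate for arginine synthesis and is in none of the lists, was at 68.9 FPKM in DRRi and 31.3 FPKM in GFPi (1.11).

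Genes of the cytosolic ribosome lay mostly a little above GFPi. With Rpl35 left out, 41 of 45 genes of the large subunit and 29 of 30 of the small subunit lay above 0 (53.5% of all genes did), with medians of 0.24 and 0.22. Over the 66 ribosomal protein genes at 100 FPKM or more, changes ran from -0.02 to 0.58, with a median of 0.23. Their summed FPKM, with the weaker ones included, was 57886 in DRRi and 48843 in GFPi. Rpl26 was at 112 FPKM in DRRi and 53.1 FPKM in GFPi (1.06), and Rpl30 at 108 and 52.2 FPKM (1.03), but the authors' deposited table gave both a q-value of 1.000. Eef2, the elongation factor that moves the ribosome along, was at 982 FPKM in DRRi and 465 FPKM in GFPi (1.08), with a q-value of 0.135 in the same authors' deposited table. Ribosomal protein genes have many near-identical processed copies in the genome, so the value of any 1 of them is uncertain. Genes of the mitochondrial ribosome did not, with 43 of 76 above 0 and the median of all genes, 0.02.

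Proteasome genes lay likewise above GFPi, with 33 of 35 above 0, against 53.5% of all genes, and a median of 0.19. Psma7, a subunit of the core ring, was at 256 FPKM in DRRi and 128 FPKM in GFPi (1.00), and was called higher in the authors' deposited table. The remaining proteasome genes lay below 1.5-fold, so the shared sign rests on small changes. Rescaling the libraries to a median change of 0 or by the upper quartile left the medians of the ribosomal, proteasome and synthetase lists above 0.

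Chaperones of the endoplasmic reticulum had the lowest median of the 57 lists. Of 38 genes 33 lay below 0, with a median of -0.29, and 3 were 1.5-fold or more lower (7.89%, against 3.50% of all genes) and 0 higher. Creld2, a secretory chaperone induced by unfolded proteins, was at 39.2 FPKM in DRRi and 64.7 FPKM in GFPi (-0.71). Dnajb9, a partner of the chaperone BiP, was at 10.7 and 16.8 FPKM (-0.61), and Sel1l, of the ligase that clears misfolded proteins, at 16.4 and 25.5 FPKM (-0.60). The summed FPKM of the list was 4295 in DRRi and 5361 in GFPi. The chaperones of the cytosol and mitochondria did not share this, with 20 of 31 above 0 and a median of 0.06. So the medians of the amino acid shortage list and of this chaperone list lay on opposite sides of 0 in the same library. Not every member did, since 7 of 30 amino acid genes lay below 0 and 5 of 38 chaperone genes above. A difference between the lists was not tested, and none of the 38 chaperone genes was called in the authors' deposited table.

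Of 55 genes of lysosomes and autophagy 8 were 1.5-fold or more lower (14.5%, against 3.50% of all genes) and 1 higher (1.82%, against 4.65%). In all, 15 of the 55 lay above 0, against 53.5% of all genes, with a median of -0.17. Lamp1, the major lysosomal membrane glycoprotein, was at 162 FPKM in DRRi and 347 FPKM in GFPi (-1.10). Grn, progranulin, was at 31.1 and 77.9 FPKM in DRRi and GFPi (-1.30), Gabarap, an autophagosome protein, at 153 and 262 FPKM (-0.78), and the protease gene Ctsa at 16.3 and 32.0 FPKM (-0.93). Lamp1 and Grn were called lower in the authors' deposited table, with q-values of 0.0242 and 0.00185. Wipi1, which marks forming autophagosomes, was the member on the higher side at 28.8 FPKM in DRRi and 18.8 FPKM in GFPi (0.59).

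**Figure D4:**
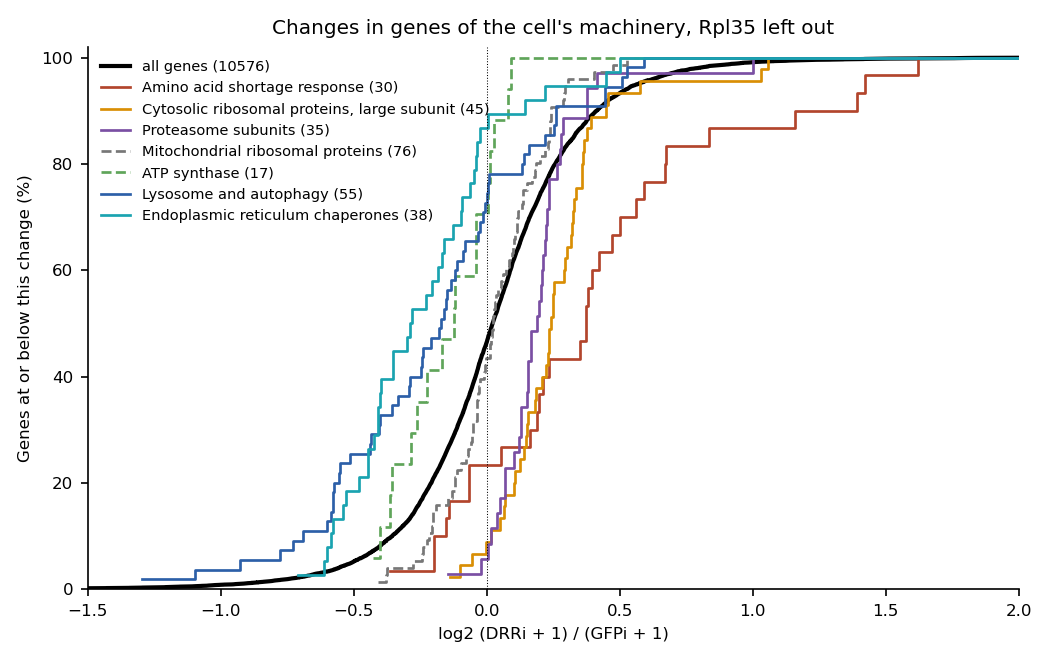
Cumulative share of genes, in percent, at or below each log2 change in DRRi over GFPi, for all genes (black) and for 7 lists. The curves of the amino acid shortage, ribosomal and proteasome lists lie right of that of all genes, those of the endoplasmic reticulum and lysosome lists lie left, and mitochondrial ribosomal proteins run along it with a median of 0.02.

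Genes of mitochondrial energy metabolism lay mostly a little below GFPi, and those of glycolysis a little above. In the citric acid cycle 14 of 19 genes lay below 0 (median -0.16), in the ATP synthase 12 of 17 (median -0.13), in complexes II and III 10 of 14 (median -0.10) and in complex IV 8 of 10 (median -0.23). Cox7b, a small subunit of complex IV, was at 79.4 FPKM in DRRi and 120 FPKM in GFPi (-0.59) and was the gene past 1.5-fold among them. Complex I, with 37 genes, had a median of -0.02, and its 1 gene past 1.5-fold, Ndufs5, was higher at 65.6 FPKM in DRRi and 36.9 FPKM in GFPi (0.82). In glycolysis 14 of 23 genes lay above 0 (median 0.11). Past 1.5-fold, 3 were higher (13.0%, against 4.65% of all genes) and 1 lower (4.35%, against 3.50%). Hk2, a hexokinase, was at 19.2 FPKM in DRRi and 12.2 FPKM in GFPi (0.61), and Slc16a1, a lactate carrier, at 34.9 and 54.6 FPKM (-0.63). Cpt1c, a carnitine palmitoyltransferase best known from brain, was at 8.20 FPKM in DRRi and 1.39 FPKM in GFPi (1.95), while Acads, of mitochondrial beta-oxidation, was at 10.2 and 20.4 FPKM (-0.93). Acly, which makes cytosolic acetyl-CoA for lipid synthesis, was at 52.2 and 83.0 FPKM in DRRi and GFPi (-0.66). Among genes of glutathione and the NRF2 factor, Tkt, transketolase, was higher at 45.2 and 18.8 FPKM (1.22), and Nqo1, a quinone reductase, was lower at 26.5 FPKM in DRRi and 56.8 FPKM in GFPi (-1.07).

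The cell cycle machinery differed little. Of 44 genes of mitosis and the spindle 0 were 1.5-fold away in either direction, the furthest being Cdc25b, a mitotic phosphatase, at 38.9 FPKM in DRRi and 55.9 FPKM in GFPi (-0.51), and the median was -0.04. Of 42 genes of DNA replication 1 was higher (2.38%, against 4.65% of all genes) and 0 were lower (against 3.50%). The higher one was Tyms, thymidylate synthase, at 15.8 and 8.93 FPKM in DRRi and GFPi (0.76). Genes of splicing, 70 in number, had 1 higher (1.43%, against 4.65% of all genes) and 2 lower (2.86%, against 3.50%), with a median of -0.02. H2afx, the histone variant phosphorylated at DNA breaks, was the 1 higher histone gene of 21 (4.76%, against 4.65% of all genes). It was at 20.5 FPKM in DRRi and 6.68 FPKM in GFPi (1.48). Lower were 3 of 21 histone genes (14.3%, against 3.50% of all genes): Hist1h2bm (-0.99), Hist1h1c (-0.81) and Hist1h2bc (-0.63), none above 4 FPKM in either library. Of 77 histone genes listed, 21 passed the filter. Most histone mRNA carries no polyA tail, but the reason for this number was not tested. Hmgb2, a chromatin protein of dividing cells outside the lists, was at 76.5 FPKM in DRRi and 158 FPKM in GFPi (-1.03).

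The muscle, p53 and cholesterol lists are given here for reference. Of 50 muscle genes 21 were 1.5-fold or more lower in DRRi (42.0%) and 2 higher (4.00%). Of 42 p53 targets 25 were higher (59.5%) and 0 lower, and of 26 cholesterol genes 11 were lower (42.3%) and 0 higher. Over all genes 4.65% were higher and 3.50% lower. Together these lists held 12 of the 94 genes that were 2-fold or more higher and 16 of the 85 lower ones. Muscle genes outside that list were among the lower ones too. Murc, a caveolar protein of muscle also known as cavin-4, was at 19.6 FPKM in DRRi and 49.7 FPKM in GFPi (-1.30), Mylk2, the myosin light chain kinase of skeletal muscle, at 2.88 and 8.86 FPKM (-1.35), and Trim54, a sarcomere-associated RING finger protein, at 0.707 and 5.61 FPKM (-1.95). Car3, a carbonic anhydrase of slow muscle and fat, was at 25.0 FPKM in DRRi and 62.1 FPKM in GFPi (-1.28).

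A few genes known from epithelia, picked after their values were seen, were on the higher side. Epithelial genes were not counted as a list, so these few give no direction for such genes. Sprr1a, a precursor of the cornified envelope that neurons also make after injury, was at 9.65 FPKM in DRRi and 3.40 FPKM in GFPi (1.27), and its neighbour in the same cluster Sprr2k at 3.52 and 1.05 FPKM (1.14). The connexin gene Gjb5, at 2.27 FPKM in DRRi and 0.514 FPKM in GFPi (1.11), and the keratin gene Krt19, at 15.5 FPKM in DRRi and 7.22 FPKM in GFPi (1.00), were also higher. The authors' deposited table called none of these 4.

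Genes past 2-fold that neighbour each other lay on the same side. Within 100 kb, 10 pairs of consecutive genes 2-fold or more away were found, and all 10 shared a direction, 1 of them a pair of overlapping entries. The pairs included the acetylcholine receptor genes Chrnd and Chrng, 5.74 kb apart. Ccng1, a cyclin induced by p53, and Nudcd2, 8.50 kb away, were higher together, the second at 50.7 FPKM in DRRi and 23.5 FPKM in GFPi (1.08). Loxl2 and the death receptor gene Tnfrsf10b lay 71.6 kb apart on chromosome 14. Around Myod1 itself, 10 other genes within 500 kb had changes from -0.42 to 0.62, with Sergef past 1.5-fold, at 5.85 FPKM in DRRi and 3.45 FPKM in GFPi. Around Myog, 9 genes ran from -0.31 to 0.76, with Btg2, an antiproliferative p53 target, the one past 1.5-fold, at 9.45 and 5.19 FPKM in DRRi and GFPi.

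The ChIP context of these genes was described with peaks from cells without RNAi. Within 10 kb of the locus, 49 of the 85 genes 2-fold or more lower in DRRi held a MyoD peak of myoblasts (57.6%, 95% exact Clopper-Pearson interval 46.4 to 68.3), as did 43 of the 94 higher genes (45.7%, 35.4 to 56.3) and 45.0% of all 10576 genes. In myotubes the shares with a MyoD peak were 76.5% of lower genes, 66.0% of higher genes and 73.9% of all genes. H3K4me1 domains of myoblasts were near almost every gene: 92.9% of lower genes, 96.8% of higher genes and 95.8% of all genes. An H3K4me1 domain of myotubes that overlapped no myoblast domain was near 48.2% of lower genes (37.3 to 59.3) and 31.9% of higher genes (22.7 to 42.3), against 51.8% of all genes. Among loci of up to 14.7 kb these shares were 27.9% of lower genes (15.3 to 43.7), 14.9% of higher genes (6.20 to 28.3) and 34.0% of all genes. With the muscle, p53 and cholesterol lists left out, 37 of 69 lower genes (53.6%, 41.2 to 65.7) and 37 of 82 higher genes (45.1%, 34.1 to 56.5) held a myoblast MyoD peak, and both intervals include the share of all genes. Genes past 2-fold were short, with a median locus of 14.4 kb for lower and 14.5 kb for higher genes against 24.8 kb for all. Among loci of up to 14.7 kb, 22 of 43 lower genes (51.2%, 35.5 to 66.7), 18 of 47 higher genes (38.3%, 24.5 to 53.6) and 34.6% of all genes of that length held a myoblast MyoD peak. Among loci over 42.2 kb, 17 of 19 lower genes (89.5%, 66.9 to 98.7) held one, against 11 of 21 higher genes (52.4%, 29.8 to 74.3) and 62.2% of all genes. Without the 3 lists 16 of 18 of these long lower genes did (88.9%, 65.3 to 98.6). Between those lengths the shares were 43.5% of 23 lower, 53.8% of 26 higher and 38.3% of all genes. Intervals cover counting error only.

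Lower and higher genes stood further apart at the ends of the genes. Within 1 kb of either end of the locus, a distance chosen after the data were seen, 29 of 85 lower genes (34.1%, 24.2 to 45.2) had a myoblast MyoD peak, against 11 of 94 higher genes (11.7%, 5.99 to 20) and 15.1% of all genes. Without the muscle, p53 and cholesterol lists the shares were 29.0% of 69 lower genes (18.7 to 41.2) and 9.76% of 82 higher genes (4.31 to 18.3). The interval of the lower genes still lay above the share of all genes. However, muscle genes outside that list, such as Murc, Mylk2 and Trim54, remained among the lower genes with a peak at an end. The share without them was not computed. Among loci of up to 14.7 kb the shares were 39.5% of 43 lower and 14.9% of 47 higher genes. Without the 3 lists the share was 25.8% of 31 lower genes (11.9 to 44.6), an interval that includes the 15.9% of all genes of that length. In myotubes, MyoD peaks lay at an end of 45.9% of lower and 28.7% of higher genes against 38.9% of all, and MyoG peaks at 42.4% of lower and 24.5% of higher genes against 30.1%. Without the 3 lists the myotube shares were 36.2% of lower and 22.0% of higher genes for MyoD and 33.3% and 19.5% for MyoG, and for lower genes both intervals then included the share of all genes. The H3K4me1 shares at the ends were 83.5% of lower and 87.2% of higher genes in myoblasts, against 84.7% of all genes. At 1.5-fold, 21.9% of 370 lower genes and 12.4% of 492 higher genes had a myoblast MyoD peak at an end. These ends carry no strand in the table, and binding at 4 h in cells with RNAi was not measured.

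**Figure D5:**
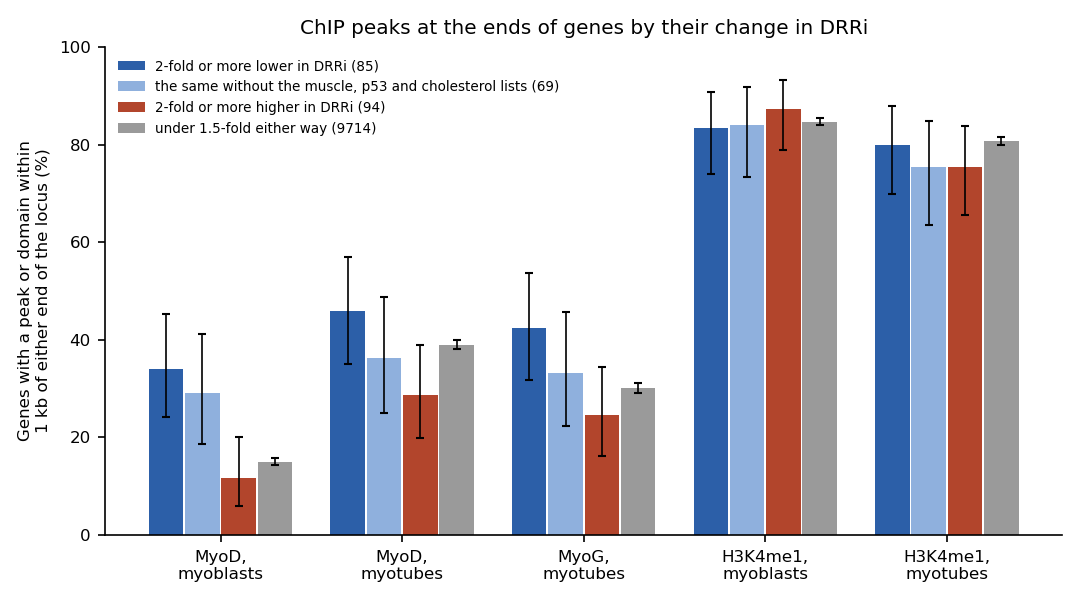
Percent of genes with a ChIP peak or domain within 1 kb of either end of the locus, by their change in DRRi, with exact 95% intervals. For MyoD in myoblasts the bars are 34.1% for lower genes, 29.0% without 3 lists, 11.7% for higher genes and 15% for genes under 1.5-fold, while the H3K4me1 bars lie close together.

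The lower genes with a MyoD peak at an end were not all muscle genes. Dmp1, an acidic matrix protein of bone and dentin, was at 2.26 FPKM in DRRi and 8.94 FPKM in GFPi (-1.61), and a peak over its upstream end (chromosome 5, 104631182 to 104631970, mm9) carried an authors' score of 963 where the median of that list was 162. Nptn, an immunoglobulin adhesion protein, was at 66.7 FPKM in DRRi and 154 FPKM in GFPi (-1.20). Cast, calpastatin, which inhibits the calpain proteases, was at 22.4 and 47.2 FPKM (-1.04). Sema3d, a secreted guidance protein, was at 5.43 FPKM in DRRi and 12 FPKM in GFPi (-1.01). Their strongest myoblast MyoD peaks within 10 kb scored 68.5 for Nptn and 107 for Cast, below that median, and 1317 for Sema3d. By contrast Mest and Ndrg4, among the furthest below, had no myoblast MyoD peak within 10 kb, and neither did Inhbb or Sfrp2 among the furthest above.

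Of 12 genes at 5 FPKM or more on average and 2-fold or more away, with 1 RefSeq promoter and a myoblast MyoD peak within 250 bp of the end that RefSeq places upstream, 6 held the letters CAGCTG there. Chac1 and Mdm2 were among the 6, and the promoters of the other 4 are printed. Every CANNTG, a palindrome read on both strands, is in capitals. It is found in 72.3% of all promoters of the table, and CAGCTG, the form MyoD prefers, in 16.3%. The 12 genes were picked for a MyoD peak, so their count with CAGCTG cannot be compared with the share of all promoters. Cdhr1, a photoreceptor cadherin, was at 6.30 FPKM in DRRi and 15.3 FPKM in GFPi (-1.15). Apobec2, a muscle member of the cytidine deaminase family, was at 4.60 and 10.6 FPKM (-1.05). Ssfa2 was at 6.80 FPKM in DRRi and 14.9 FPKM in GFPi (-1.03). Sprr1a, given above, was higher in DRRi. Promoter positions are GRCm38.p6 and peaks mm9, and the builds were not converted into each other. Shares of E-boxes among all moved genes are not given. Promoters were matched for 66 of the 85 lower and 66 of the 94 higher genes, too few for that check.
Cdhr1, chr14:37098298-37098597, minus strand: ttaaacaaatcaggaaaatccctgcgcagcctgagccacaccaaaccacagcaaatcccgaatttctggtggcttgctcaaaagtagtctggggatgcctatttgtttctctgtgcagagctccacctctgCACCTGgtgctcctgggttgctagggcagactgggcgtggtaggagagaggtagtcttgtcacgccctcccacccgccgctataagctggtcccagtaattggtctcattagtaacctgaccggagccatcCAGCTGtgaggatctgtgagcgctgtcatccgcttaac
Apobec2, chr17:48432679-48432978, minus strand: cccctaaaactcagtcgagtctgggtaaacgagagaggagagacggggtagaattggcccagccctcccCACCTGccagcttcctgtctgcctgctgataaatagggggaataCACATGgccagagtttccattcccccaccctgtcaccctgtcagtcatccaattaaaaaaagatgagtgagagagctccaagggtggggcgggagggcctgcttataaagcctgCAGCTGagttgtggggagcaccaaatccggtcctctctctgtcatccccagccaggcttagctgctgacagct
Ssfa2, chr2:79635175-79635474, plus strand: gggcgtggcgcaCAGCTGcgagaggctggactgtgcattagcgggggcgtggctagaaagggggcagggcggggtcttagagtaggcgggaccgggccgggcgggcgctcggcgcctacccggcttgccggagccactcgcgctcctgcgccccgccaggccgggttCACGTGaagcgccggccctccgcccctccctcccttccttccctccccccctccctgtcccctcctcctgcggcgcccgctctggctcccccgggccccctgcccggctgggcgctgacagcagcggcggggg
Sprr1a, chr3:92485832-92486131, minus strand: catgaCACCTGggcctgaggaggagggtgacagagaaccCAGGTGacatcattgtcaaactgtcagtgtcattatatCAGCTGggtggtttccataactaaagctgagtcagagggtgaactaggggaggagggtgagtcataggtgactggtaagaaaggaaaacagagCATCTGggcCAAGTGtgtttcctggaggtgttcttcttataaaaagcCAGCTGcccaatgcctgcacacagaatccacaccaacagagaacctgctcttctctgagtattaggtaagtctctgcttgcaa

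The overexpression pair, which shares no library with the knockdown and was normalized on its own, gave values for the same genes. Of the 85 genes 2-fold or more lower in DRRi, 13 stood above pHAN_GFP in pHAN_DRR1.2 by at least 1.5-fold and 5 below, against 1.05% and 0.501% of all genes. Of the 13, 10 were genes of muscle, and the exceptions were Nptx1, Blnk and Serpinb9b. Nptx1 was at 10.7 FPKM in pHAN_DRR1.2 and 3.13 FPKM in pHAN_GFP (1.5), opposite to its change in DRRi. Igfbp3, at 7.06 and 12.1 FPKM (-0.70), and Mest, at 48.7 FPKM in pHAN_DRR1.2 and 114 FPKM in pHAN_GFP (-1.22), were lower in both experiments. So were Car3, Lix1 and Rbm24. Rbm24, a gene of the muscle list, was at 7.11 FPKM in pHAN_DRR1.2 and 12.6 FPKM in pHAN_GFP (-0.74). Of the 94 genes 2-fold or more higher in DRRi, 8 were higher and 7 lower in pHAN_DRR1.2. Sfrp2 was at 23.7 FPKM in pHAN_DRR1.2 and 75.8 FPKM in pHAN_GFP (-1.64). List medians in the overexpression pair were 0.04 for amino acid shortage, -0.02 for YAP and TEAD targets, -0.08 for endoplasmic reticulum chaperones, 0.07 for lysosome and autophagy genes, 0.14 for growth factor receptors and ERK feedback, 0.14 for AP-1 and Egr factors, 0.18 for DNA replication, 0.18 for mitosis and 0.31 for muscle genes. Whether the changes of the 2 experiments differ was not tested.

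Rpl35, which encodes a component of the larger ribosomal subunit, stood at 976 FPKM in DRRi and 3.55 FPKM in GFPi (7.75). The overexpression pair showed the same, with 659 FPKM in pHAN_DRR1.2 and 2.66 FPKM in pHAN_GFP (7.50). No other gene with 5 FPKM or more in DRRi was 50-fold or more above GFPi. Of the 79 ribosomal protein genes listed, 67 averaged 100 FPKM or more over DRRi and GFPi, and the 8 under 20 FPKM were low in both libraries. Rpl7a, for example, was at 4.30 FPKM in DRRi and 4.83 FPKM in GFPi, Rpl21 at 0.931 and 1.07 FPKM, and Rpl29 at 2.00 and 2.11 FPKM. The cause of the low Rpl35 values in both GFP libraries was not tested.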

How the data were processed

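FPKM values per coding sequence, with p-values and q-values, were taken from the authors' deposited table for DRRi against GFPi, and FPKM from a second one for pHAN_DRR1.2 against pHAN_GFP; per the file headers each holds 2 conditions and 24333 coding sequences. The submitters' processing notes list TopHat, SICER, bedtools and mm9 but no versions, and the tool that made the FPKM values is not given in the sources used here. The labels tie each table to 2 samples, and the column not named for GFP was taken as DRRi or pHAN_DRR1.2. Per the file headers MACS made the MyoD and MyoG peaks, each with a score, from samples whose labels name 2 runs, and H3K4me1 domains on windows of 200 bp carry the authors' deposited fold; scores and folds were used within a list alone.

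FPKM was summed per gene symbol, genes averaging at least 1 FPKM were kept, and log2 ratios were taken with a pseudocount of 1. A low gene in 1 library can pass through the other. With 1 library per group no p-value was computed, and read depth and its precision are unknown. Members of 57 gene lists, with 3 set apart and 7 of markers, were counted at 1.5-fold. The members and lists were chosen with earlier results of these data known. Named were the 15 genes furthest above and below at 5 FPKM or more, up to 4 members a list and direction past 1.5-fold (or, with none, the furthest member each way), Myod1, Myog and their moved neighbours within 500 kb; others named were chosen after their values were seen. A locus spans a gene's rows within 1 Mb of its most abundant coding sequence, and a peak within 10 kb counted as near; coordinates count from 1. Symbols or synonyms matched RefSeq promoters for 8486 genes. Alternatives were another pseudocount, filters, the most abundant coding sequence, rescaling, the authors' q-value threshold, distances and peak strength. Scripts (Python 3 with numpy, pandas and scipy) were tested on simulated data.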

Additional observations from a re-analysis of the deposited data

How the results depend on the processing

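No paired analysis was possible because each group holds 1 library and the shared number 1 pairs nothing. With a pseudocount of 0.1 the counts past 2-fold were 179 higher and 132 lower, and among genes averaging at least 5 FPKM they were 59 and 53, with 319 higher at 1.5-fold. No filter, the most abundant coding sequence, and both rescalings kept these counts within 1.5 times. At a q-value under 0.01 the authors' calls were 22 higher and 23 lower. The share of lower genes with a myoblast MyoD peak was 80.0% within 50 kb (71.2% of all genes) and 44.7% with peaks at or above the median score (27.8%). For higher genes it was 35.1% within 2 kb (35.7%), 73.4% within 50 kb and 20.2% with the stronger peaks. With myotube MyoD peaks it was 92.9% of lower and 89.4% of higher genes within 50 kb, and 62.4% and 46.8% with stronger peaks. With myoblast H3K4me1 domains it was 97.6% of lower genes within 50 kb, and 71.8% of lower and 77.7% of higher genes with stronger domains. A wider distance or fewer peaks moves these shares by construction. At the ends of loci, the stronger MyoD peaks left 18.8% of lower and 4.26% of higher genes, against 6.65% of all. Among gene lists, the medians of axon guidance, mitochondrial ribosomal, bone matrix, tubulin, Hox, aldo-keto reductase, tumour necrosis factor receptor and pentraxin genes, and of adipocyte and fibroblast markers, changed sign in at least 1 setting. None of the named genes past 1.5-fold changed sign. The lack of replicates and of read depth limits every difference.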

Other observations

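Several gene families were not described above. Krueppel-like factors, zinc finger regulators of growth and differentiation, had 8 of 11 members below 0 and a median of -0.27, with 0 past 1.5-fold, and the median of the same genes in the overexpression pair was 0.30. Amino acid and peptide transporters had 17 of 24 members below 0 (median -0.14) and 1 past 1.5-fold higher, Slc1a4, the neutral amino acid carrier that is also in the amino acid shortage list. Annexins and S100 proteins, which bind calcium and membranes, had 12 of 18 below 0 (median -0.13). Smooth muscle and SRF targets, genes of actin and contraction, had 15 of 22 above 0, against 53.5% of all genes (median 0.21). Integrins and laminins (23 genes, median -0.03) and cadherins with immunoglobulin adhesion proteins (35 genes, median -0.03) had as many higher members as lower ones past 1.5-fold. These were 1 each (4.35%) and 3 each (8.57%), against 4.65% of all genes higher and 3.50% lower.

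The remaining lists hold few genes, so 1 or 2 members make up their shares, to be read against 4.65% of all genes higher and 3.50% lower. Of 14 imprinted genes 1 was higher (7.14%) and 2 were lower (14.3%) past 1.5-fold. FoxO and muscle atrophy genes had 1 of 17 higher (5.88%) and 3 lower (17.6%), among them Trim54. In the interferon and antigen presentation list 2 of 20 were higher (10.0%) and 0 lower, and in the circadian clock list 2 of 14 (14.3%) and 0. Hox genes, which pattern the body axis, had 1 of 16 higher (6.25%) and 0 lower, and tubulins and kinesins 2 of 42 (4.76%) and 0, close to the share of all genes. No explanation was tested for any of these.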
